A study of Homo sapiens with 4 samples.

Results

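The genes described here are 41 ribosome biogenesis genes, among them KRR1, out of 17755 genes in the deposited expression table. They cover MYC, RNA polymerase I and its factors, the small nucleolar ribonucleoproteins (snoRNPs), the small-subunit processome, late small-subunit assembly, large-subunit assembly and abundant nucleolar proteins. The set was named for roles in ribosome assembly, but KRR1 and its comparison with the rest were chosen by the siLINC00622 over siNC ratios of these same libraries, so those ratios are given as a description and carry no test. The study knocked down the long noncoding RNA LINC00622 in A375 and SK-MEL-28, both established lines of human melanoma cells. Each line was transfected with siLINC00622 or with the control siRNA siNC, kept for 6 h without serum and then for 24 h after a change to medium with serum, and poly(A) RNA was sequenced. There are 4 libraries, 1 per line and treatment, so no siRNA difference has a replicate check. The sources do not say how many cultures made up a library, and both treatments of a line come from that line alone.

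Ribosomes are assembled in the nucleolus, where RNA polymerase I transcribes the ribosomal RNA precursor. The small-subunit processome folds and cleaves the part of the precursor that becomes the small subunit, while other factors build the large subunit, and snoRNPs modify the RNA of both. MYC is known to raise the transcription of many of these genes in growing cells.

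Library totals lay between 31269923 and 36384819 counts. Counts were scaled within each line by TMM, and each change is a log2 ratio, siLINC00622 over siNC, computed after a prior count of 2 was added. Brackets hold 95% Clopper-Pearson intervals, which cover only counting error. A gene is called lower or higher past a fold change of 1.5. Paired counts are given with siNC first and siLINC00622 second, and paired ratios with SK-MEL-28 first and A375 second. The median log2 ratio of all genes that passed a minimum of 10 counts was 0.00 in each line. The targeted gene LINC00622 went from 309 counts with siNC to 135 after knockdown in SK-MEL-28, and from 135 to 86 in A375. Its log2 ratio was -1.21 (-1.53 to -0.93) in SK-MEL-28, against -0.84 (-1.27 to -0.46) in A375. All 10 melanocytic markers looked for were listed, with summed FPKM between 2117 and 2252 in the SK-MEL-28 libraries and between 206 and 249 in A375. Of 6 keratinocyte and 6 fibroblast or immune markers, 2 and 2 were listed. The summed FPKM of the listed keratinocyte markers was between 19.1 and 19.4 in SK-MEL-28 and between 32.2 and 32.4 in A375, and that of the fibroblast and immune markers between 9.09 and 9.80 and between 4.10 and 5.93. Of all these markers, 3 passed a fold change of 1.5 and are named for it, after their values were seen. S100B had a log2 ratio of -0.59 (-0.63 to -0.54) in SK-MEL-28 but 0.61 (0.41 to 0.81) in A375, LUM one of 0.78 (0.53 to 1.04) in A375, and TYRP1, with 13 and 6 counts, one of -1.08 (-3.01 to 0.17) in A375. Their part in the members' changes was not tested. The lines differ in their melanocytic levels, and any link of these levels to the members' changes was not tested either.

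KRR1 was much lower with siLINC00622 in both lines, while most of the other members lay within a fold change of 1.2. All 41 members passed the count minimum in each line. In SK-MEL-28, 2 of them (KRR1 and LTV1) were lower by more than 1.5-fold, against 6.49% of all 15442 genes, and 1 (NOLC1) was higher, against 4.56%. In A375, 3 members (KRR1, LTV1 and NOP2) were lower, against 4.34% of 16021 genes, and 0 were higher, against 4.52%. Both KRR1 and LTV1 were lower in both lines, as were 1.09% of the 14721 genes that passed in both. Since this contrast chose KRR1, nothing is read from these shares. The fold limit is a log2 ratio of 0.58 in size. Of the members called lower, the nearest to it were LTV1 at -1.04 in SK-MEL-28, well past it, and NOP2 at -0.65 in A375. On the other side of the limit the nearest was NPM1, at -0.52 and -0.48. The median log2 ratio of the 41 members was -0.06 in SK-MEL-28, against -0.18 in A375. In SK-MEL-28, 25 members lay below 0, against 50.5% of all genes. In A375, 38 members lay below 0, against 49.3%. Of the 40 members other than KRR1, 34 in SK-MEL-28 and 27 in A375 were within a fold change of 1.2 in either direction. The share of all genes within that range was not computed, so these counts only describe the members.

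**Figure D1:**
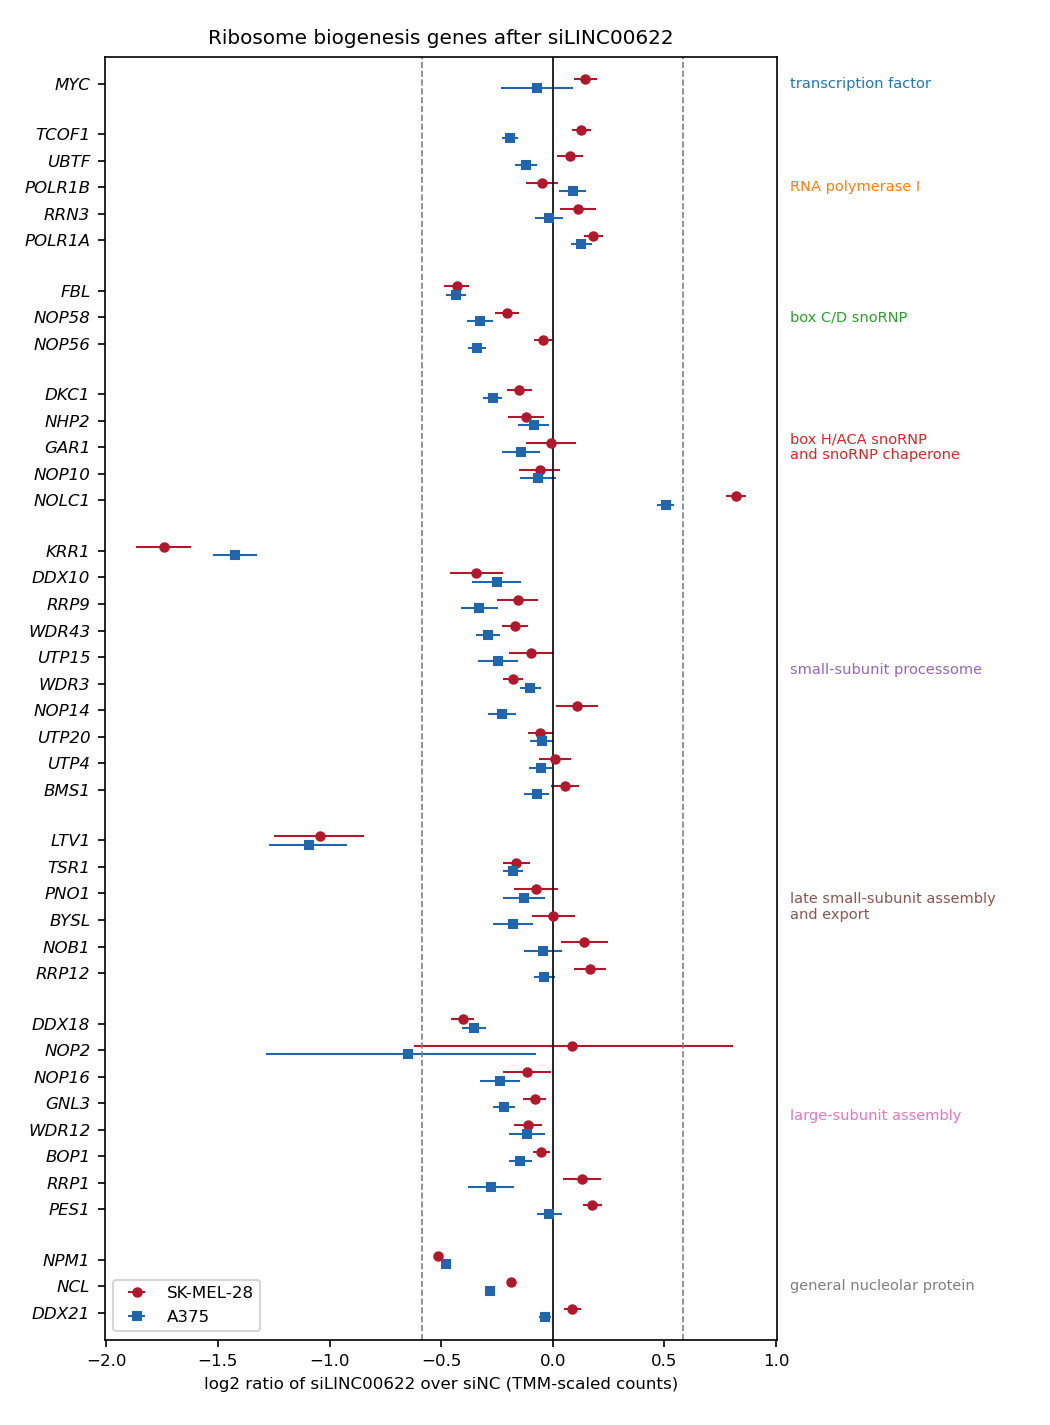
Log2 ratio of siLINC00622 over siNC (x axis) for each of the 41 genes, grouped by role, in SK-MEL-28 (circles) and A375 (squares), 1 library per condition. Bars are 95% counting intervals and dashed lines mark a fold change of 1.5; KRR1 lies at -1.74 and -1.42, LTV1 at -1.04 and -1.09, and NOLC1 at 0.82 and 0.51, with most other genes near 0.

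The small-subunit processome, a large particle that forms on the nascent ribosomal RNA, is represented by 10 members. KRR1 (ENSG00000111615), a KH-domain RNA-binding protein of this particle, lies at chr12:75490861-75511636 on the minus strand of GRCh38 in the GENCODE 29 annotation. SK-MEL-28 had 2306 KRR1 counts with siNC and 703 after knockdown, and A375 had 2672 and 1152. Both siLINC00622 libraries were below both siNC libraries. The log2 ratio was -1.74 (-1.87 to -1.62) in SK-MEL-28, against -1.42 (-1.52 to -1.32) in A375, or 3.35-fold and 2.68-fold lower. The 2 intervals do not overlap, but they leave out the variation between cultures. Ranked from the lowest, KRR1 was 26th of the 15442 genes of SK-MEL-28 and 35th of the 16021 of A375. Its gap to the median of the other 40 members was -1.69 in SK-MEL-28, against -1.26 in A375.

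None of the other 9 processome members passed the fold limit. DDX10, a DEAD-box helicase, had the lowest mean of both lines after KRR1, with counts of 1277 and 1029 in SK-MEL-28, against 1366 and 1327 in A375. Its log2 ratios were -0.34 (-0.46 to -0.22) and -0.25 (-0.36 to -0.14). RRP9, the U3 snoRNP protein, had log2 ratios of -0.16 and -0.33, and WDR43, a UTP-A subunit, of -0.17 and -0.29. The other UTP-A subunits UTP15 and UTP4 were at -0.10 and -0.25, and at 0.01 and -0.05. WDR3 of the UTP-B complex was at -0.18 and -0.10. UTP20, a large scaffold protein, was at -0.06 and -0.05, and the GTPase BMS1 at 0.05 and -0.07. NOP14, which binds the particle that becomes the small-subunit head, was at 0.11 (0.01 to 0.20) in SK-MEL-28, against -0.23 (-0.29 to -0.16) in A375. A second list of 38 small-subunit processome genes outside the 41 held 0 genes past the fold limit in either line, with medians of -0.03 and -0.09. Its lowest log2 ratios were -0.32 (SK-MEL-28) and -0.37 (A375). Of all SK-MEL-28 genes, 6.49% were lower and 4.56% higher past the limit. For A375 these shares were 4.34% and 4.52%. Because KRR1 was chosen by these same ratios, nothing is read from its distance to this list.

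Reads on KRR1 may include reads of its neighbour. GLIPR1, a gene on the plus strand, overlaps it, and 1516 of the 10749 exonic bases of KRR1 are also exonic in GLIPR1. The library kit that the methods name does not mark strand, and the counting is not stated to use it, so reads in the shared bases cannot be told apart. GLIPR1 had 288 and 366 counts in SK-MEL-28, against 316 and 446 in A375, with log2 ratios of 0.31 and 0.29 in the other direction. With both genes summed, the log2 ratio was -1.31 (-1.41 to -1.21) in SK-MEL-28, against -1.11 (-1.20 to -1.02) in A375. The nearest listed gene at lower coordinates, AC121761.1, had 56 counts in each SK-MEL-28 library and 31 and 24 in A375. On the other side RPL10P13, 177 kb away, had between 1 and 8 counts per library.

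The late small-subunit assembly and export group holds 6 members and the other strongly lower gene. LTV1 (ENSG00000135521, chr6:143843344-143863812, plus strand, GRCh38) takes part in the last nuclear steps of small-subunit assembly and export. SK-MEL-28 had 619 LTV1 counts with siNC and 306 after knockdown, and A375 had 760 and 411. The siLINC00622 libraries were again the lowest of the 4. The log2 ratio was -1.04 (-1.25 to -0.85) and -1.09 (-1.27 to -0.92), or 2.06-fold and 2.13-fold lower, and it ranked 218th and 101st from the lowest of all genes. The annotation places 511 of its 1847 exonic bases within exons of AL049844.3, a gene on the same strand that is not used here. None of the other 5 passed the limit. TSR1, a GTPase-like assembly factor, was at -0.16 and -0.18. PNO1, a KH-domain partner of the nuclease NOB1, was at -0.07 and -0.13, and NOB1, which makes the final cut of the small-subunit RNA, at 0.14 and -0.04. BYSL was at 0.00 and -0.18, and the export factor RRP12 at 0.17 and -0.04. A list of 9 late kinases and other late small-subunit factors had 0 genes past the limit and medians of 0.06 and -0.05.

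**Figure D2:**
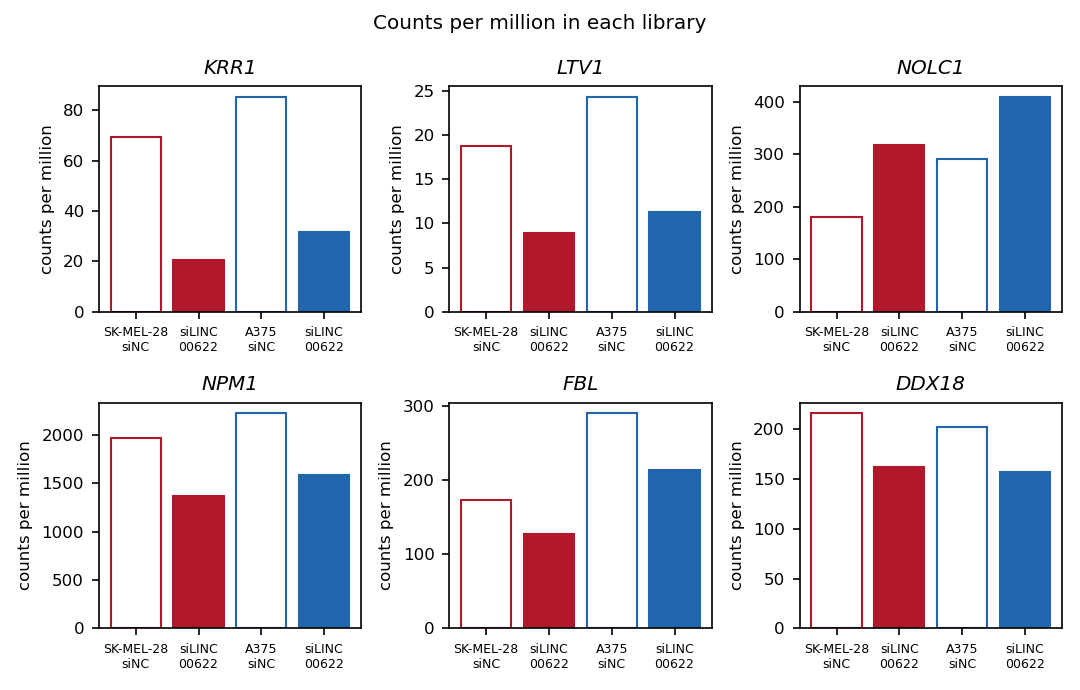
CPM (y axes, each from 0) in the 4 libraries for KRR1, LTV1, NOLC1, NPM1, FBL and DDX18, open bars siNC and filled bars siLINC00622, 1 library per bar. For NOLC1 the filled bar is the taller of each line; for the other 5 genes it is the shorter one.

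The snoRNP members held the gene with the highest log2 ratio. NOLC1, a chaperone that carries snoRNPs within the nucleolus, had 6005 and 10845 counts in SK-MEL-28, against 9069 and 14890 in A375. Its siLINC00622 library was the higher one in each line. The log2 ratio was 0.82 (0.78 to 0.87) in SK-MEL-28, against 0.51 (0.47 to 0.54) in A375, a fold change of 1.77 and of 1.42, of which only the first passed the limit. The 4 core proteins of box H/ACA snoRNPs, which guide pseudouridylation, did not pass it. DKC1, the pseudouridine synthase, was at -0.15 and -0.27, NHP2 at -0.12 and -0.09, GAR1 at -0.01 and -0.14, and NOP10 at -0.06 and -0.07. The 3 proteins of box C/D snoRNPs, which guide methylation of ribosomal RNA, all had log2 ratios below 0 in both lines. FBL, the methyltransferase fibrillarin, had 5738 and 4350 counts in SK-MEL-28, against 9068 and 7756 in A375. Its log2 ratios were -0.43 (-0.49 to -0.37) and -0.43 (-0.48 to -0.39), short of the limit of 0.58 in size. NOP58 was at -0.21 and -0.32, and NOP56 at -0.04 and -0.34.

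Large-subunit assembly is represented by 8 members. DDX18, a helicase, had 7157 and 5529 counts in SK-MEL-28, against 6327 and 5727 in A375, with log2 ratios of -0.40 (-0.46 to -0.35) and -0.35 (-0.41 to -0.30). The 3 subunits of the PeBoW complex, which is needed for maturation of the large-subunit RNA, stayed close to 0, with BOP1 at -0.05 and -0.14, WDR12 at -0.11 and -0.12, and PES1 at 0.18 and -0.02. NOP16 was at -0.12 and -0.24, the nucleolar GTPase GNL3 at -0.08 and -0.22, and RRP1 at 0.13 (0.05 to 0.22) and -0.28 (-0.38 to -0.17). NOP2, an RNA methyltransferase, had only 34 and 37 counts in SK-MEL-28, against 58 and 42 in A375. Its log2 ratio of -0.65 in A375 has an interval from -1.28 to -0.08, and 2550 of its 4687 exonic bases also belong to AC006064.6 on the same strand, a gene not used here, so its level is uncertain. In FPKM with a pseudocount of 1 its A375 value was -0.16 and no longer past the limit. A second list of 44 large-subunit assembly genes held 0 past the limit, with medians of -0.05 and -0.13.

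Among the abundant nucleolar proteins, NPM1 (nucleophosmin) had 65355 and 46718 counts in SK-MEL-28, against 69642 and 57833 in A375. Its log2 ratio was -0.52 (-0.53 to -0.50) and -0.48 (-0.49 to -0.46), the nearest to the limit from outside among members on the low side in both lines. The table also lists 6 pseudogenes of NPM1 with 2.52% and 2.62% of the summed reads, and summing them left log2 ratios of -0.52 and -0.48. NCL (nucleolin) was at -0.19 and -0.28, and the helicase DDX21 at 0.09 and -0.03. Listed pseudogenes took at most 12.3% of the reads of any other member, in the case of BMS1 in A375, where the sum gave -0.05. RRN3 summed with RRN3P1 and RRN3P3 gave log2 ratios of 0.13 and -0.03.

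RNA polymerase I members did not pass the limit in either line. POLR1A, the largest subunit, had 7988 and 9258 counts in SK-MEL-28, against 6411 and 8100 in A375, and was the highest member after NOLC1 in both lines with log2 ratios of 0.18 and 0.13. POLR1B, the second largest subunit, was at -0.05 and 0.09, and the initiation factor RRN3 at 0.11 and -0.02. UBTF, the upstream binding factor, was at 0.07 (0.02 to 0.13) and -0.12 (-0.17 to -0.07). TCOF1, a cofactor of this transcription, was at 0.13 (0.08 to 0.17) and -0.19 (-0.23 to -0.15). Of 11 other RNA polymerase I genes, 1 was lower past the limit in SK-MEL-28, the subunit gene POLR1G, with 175 and 110 counts and a log2 ratio of -0.69 (-1.06 to -0.35). In A375 it had 329 and 255 counts and -0.57 (-0.82 to -0.34), and 0 of the 11 passed. POLR1G is named because it passed, after its values were seen.

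MYC itself did not follow KRR1. It had 5962 and 6740 counts in SK-MEL-28, against 606 and 667 in A375, with log2 ratios of 0.15 (0.10 to 0.20) and -0.07 (-0.23 to 0.09). Of the 9 listed genes of a MYC network list, MXD4, a MAX-binding repressor, passed the limit in A375, at 0.98, and not in SK-MEL-28, at 0.46. Of 22 MYC targets outside ribosome biogenesis, TFRC passed in SK-MEL-28 at 0.63 (0.06 in A375) and NME2 in A375 at -0.81 (-0.15 in SK-MEL-28). These 3 genes are named because they passed, after their values were seen. The list medians were -0.09 and -0.13, beside -0.06 and -0.18 for the 41 members.

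The 3 members with the lowest mean log2 ratio over both lines were KRR1 at -1.58, LTV1 at -1.07 and NPM1 at -0.50. The 3 with the highest were NOLC1 at 0.66, POLR1A at 0.15 and PES1 at 0.08. They were picked by this mean, and PES1 had opposite signs in the lines, while the counting intervals of KRR1 and of NOLC1 did not overlap between the lines. Over the 41 members Pearson's r between the lines was 0.89 and Spearman's rho 0.69, and without KRR1, LTV1 and NOLC1 they were 0.54 and 0.61 over 38 members. These are correlations across genes, which share their libraries and are not independent. The sign was the same in both lines for 26 of 41 members, against 62.2% of all genes.

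**Figure D3:**
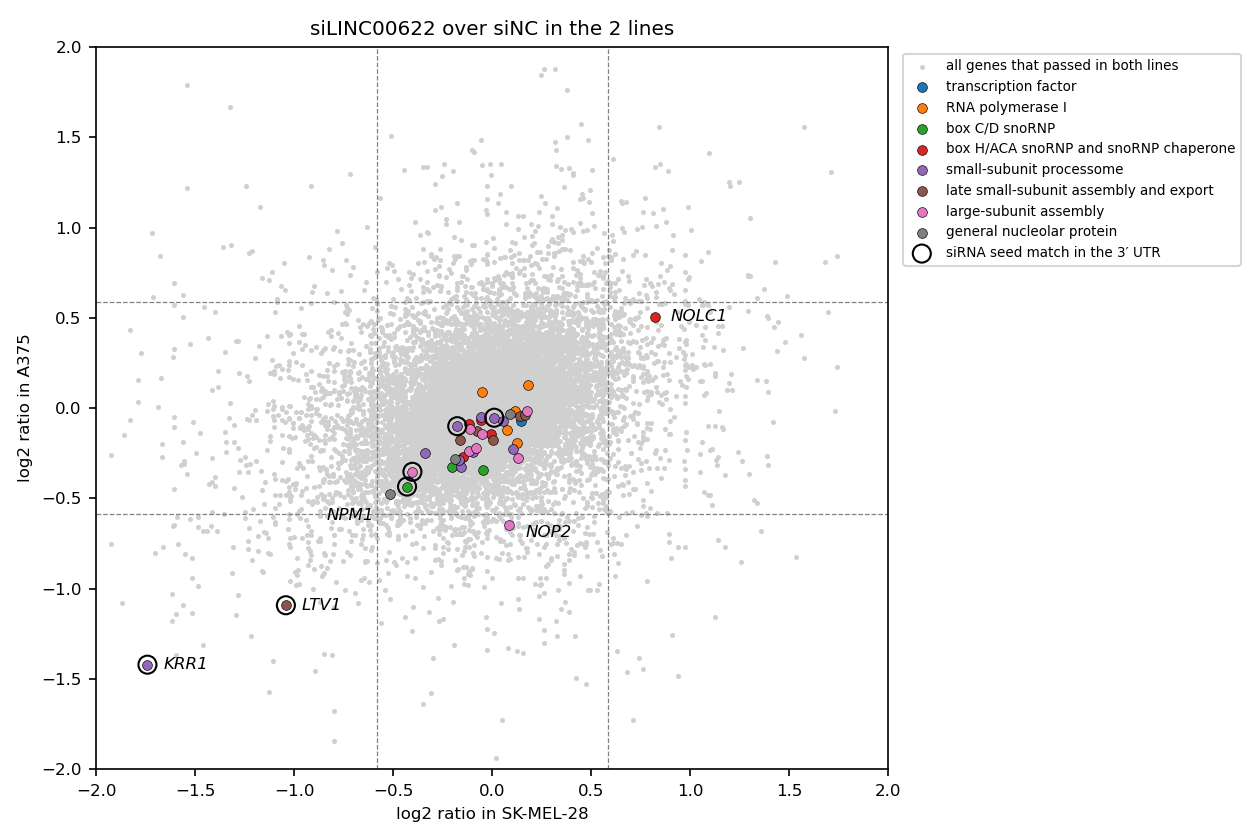
Log2 ratio of siLINC00622 over siNC in SK-MEL-28 (x axis) and in A375 (y axis) for 14721 genes in grey and the 41 members coloured by role, with dashed lines at a fold change of 1.5 and black rings on members with an siRNA seed match. KRR1 and LTV1 lie apart at the lower left and NOLC1 at the right; 31 grey genes fall beyond the axes, which end at 2.

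The guide strand of an siRNA can pair through bases 2 to 8, its seed, with the 3′ UTR of transcripts other than its target. The study designed 2 siRNAs against LINC00622, and the sources used here do not say which was given to the sequenced cells. Their targets are shown with the 7 bases opposite the seed in capitals.
siLINC00622_1: ccctaaagaaaGTGAGAAa
siLINC00622_2: ggcaacctctaATTGACTt

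The longest annotated 3′ UTR of 6 of the 41 members held a seed match, and all 7 matches are shown because KRR1 and LTV1 carry 3 of them. Positions are those of GRCh38, capitals mark the match, and the sequence is that of the transcript.
KRR1, for siLINC00622_1, chr12:75499725-75499731, minus strand: ccttatttGTGAGAAattttctg
KRR1, for siLINC00622_1, chr12:75498373-75498379, minus strand: attagaatGTGAGAAatttatta
UTP4, for siLINC00622_1, chr16:69167419-69167425, plus strand: cgtaagtaGTGAGAAatgttggc
LTV1, for siLINC00622_2, chr6:143863581-143863587, plus strand: ctttggttATTGACTagaaactt
DDX18, for siLINC00622_2, chr2:117830840-117830846, plus strand: gagtataaATTGACTtgggttgc
FBL, for siLINC00622_2, chr19:39834798-39834804, minus strand: ccaactgcATTGACTccacagcc
WDR3, for siLINC00622_2, chr1:117960297-117960303, plus strand: agcctgttATTGACTgggagcct

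The members with a match included KRR1, LTV1, FBL and DDX18, and also UTP4 and WDR3, whose log2 ratios lay between -0.18 and 0.01. NPM1, which was lower than FBL and DDX18 in both lines, held none, nor did NOLC1. The median log2 ratio of the 6 was -0.42 in SK-MEL-28, against -0.39 in A375, beside -0.05 and -0.14 for the 35 members without a match. These 6 pool the seeds of both siRNAs and include KRR1, which was chosen by these ratios, so nothing is read from this difference. Among all genes with an annotated 3′ UTR that passed in SK-MEL-28, 25.5% held a match to either seed, and their median was -0.07 beside 0.01 for the rest. In A375, 25.4% held one, and the medians were -0.01 and 0.02. In both lines, genes with more matches also had longer 3′ UTRs. For siLINC00622_1 in SK-MEL-28, the median length was 1430 bases with 0 matches, 2976 with 1 and 4991.5 with 2 or more. Length and matches were not tested apart. With 0, 1 and 2 or more matches to siLINC00622_1, the SK-MEL-28 median log2 ratios were 0.00, -0.06 and -0.15 (362 genes). Those of A375 were 0.02, -0.01 and -0.06 (364 genes), so for this siRNA the median was lower with more matches in both lines. For siLINC00622_2, whose seed matches LTV1, DDX18, FBL and WDR3, SK-MEL-28 gave a median of -0.10 for the 219 genes with 2 or more matches, beside -0.06 for the 1296 genes with 1 match. The 10446 SK-MEL-28 genes with 0 matches to this siRNA had a median of -0.003, so the median fell with more matches. For A375 the medians were 0.013 with 0 matches, -0.008 for the 1318 genes with 1 and 0.007 for the 223 with 2 or more. Both A375 groups with matches thus lay below the genes with 0, but the median did not fall further from 1 match to 2 or more. KRR1 is one of the genes with 2 or more matches to siLINC00622_1. Its annotated 3′ UTR of 8948 bases is longer than the median of 4991.5 bases of those genes in SK-MEL-28. That of LTV1 has 285 bases. The longest unbroken run of the 19 target bases of siLINC00622_1 found in any KRR1 transcript was 10 bases, and 8 for LTV1. The longest run of siLINC00622_2 was 8 bases in KRR1 and 7 in LTV1. The part of seed matches in the lower ratios was not tested.

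Promoter windows from RefSeq on GRCh38.p14, from 250 bases before to 50 after a transcription start, were matched by symbol for 34 of the 41 members. The letters CACGTG, the E-box that MYC with MAX can bind and which reads the same on both strands, occurred in 15 of the 34, or 44.1%. Of all 27305 genes with a window, 8.77% held it, and of the 10530 that passed the count minimum in A375, 12.6% did. LTV1 and FBL hold it and KRR1 does not, as shown by these windows with the motif in capitals.
LTV1, chr6:143843088-143843387, plus strand: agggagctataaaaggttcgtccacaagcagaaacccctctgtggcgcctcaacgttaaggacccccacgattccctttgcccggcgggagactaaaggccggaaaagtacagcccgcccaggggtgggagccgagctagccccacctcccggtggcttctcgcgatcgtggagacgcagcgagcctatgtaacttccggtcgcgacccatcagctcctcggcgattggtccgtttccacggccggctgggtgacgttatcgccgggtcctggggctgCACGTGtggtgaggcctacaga
FBL, chr19:39846330-39846629, minus strand: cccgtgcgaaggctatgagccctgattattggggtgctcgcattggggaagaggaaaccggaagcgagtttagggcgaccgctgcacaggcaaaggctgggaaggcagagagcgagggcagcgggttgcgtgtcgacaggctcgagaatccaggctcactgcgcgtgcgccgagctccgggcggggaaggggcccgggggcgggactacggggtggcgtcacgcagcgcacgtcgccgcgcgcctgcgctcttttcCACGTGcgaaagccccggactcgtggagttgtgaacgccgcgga
KRR1, chr12:75511560-75511859, minus strand: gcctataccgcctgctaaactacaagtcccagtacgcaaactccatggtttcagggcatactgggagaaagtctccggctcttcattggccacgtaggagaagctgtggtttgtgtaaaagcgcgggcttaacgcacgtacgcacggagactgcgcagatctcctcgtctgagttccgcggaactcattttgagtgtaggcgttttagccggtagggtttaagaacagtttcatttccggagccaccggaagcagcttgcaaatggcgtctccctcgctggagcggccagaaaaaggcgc

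The members with and without the motif had much the same log2 ratios. The medians were -0.06 for the 15 with it and -0.11 for the 19 without it in SK-MEL-28, while both were -0.18 in A375. A match is only a description of these letters.

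Levels per length span a wide range among the members. In deposited FPKM, NPM1 was the highest member of both siNC libraries, at 237 in SK-MEL-28 and at 268 in A375, with NOP2 the lowest of all 4 libraries, between 0.22 and 0.40. The median member stood at 21.5 and 21.1 FPKM in the SK-MEL-28 libraries and at 31.8 and 28.8 in A375. KRR1 was already among the lowest before the knockdown, at 6.48 FPKM in SK-MEL-28 and 7.95 in A375, ranked 39th and 38th of 41, and with siLINC00622 it was at 1.91 and 2.95, ranked 40th in each. LTV1 went from 10.1 to 4.83 FPKM in SK-MEL-28 and from 13.1 to 6.10 in A375. NOLC1 went from 45.7 to 80.0 and from 73.1 to 103 FPKM, which took it from 12th to 5th in SK-MEL-28 and from 6th to 5th in A375. The FPKM of KRR1 fits a length of 10747 bases, close to its 10749 exonic bases in the annotation, so this level depends on the exons that are annotated.

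**Figure D4:**
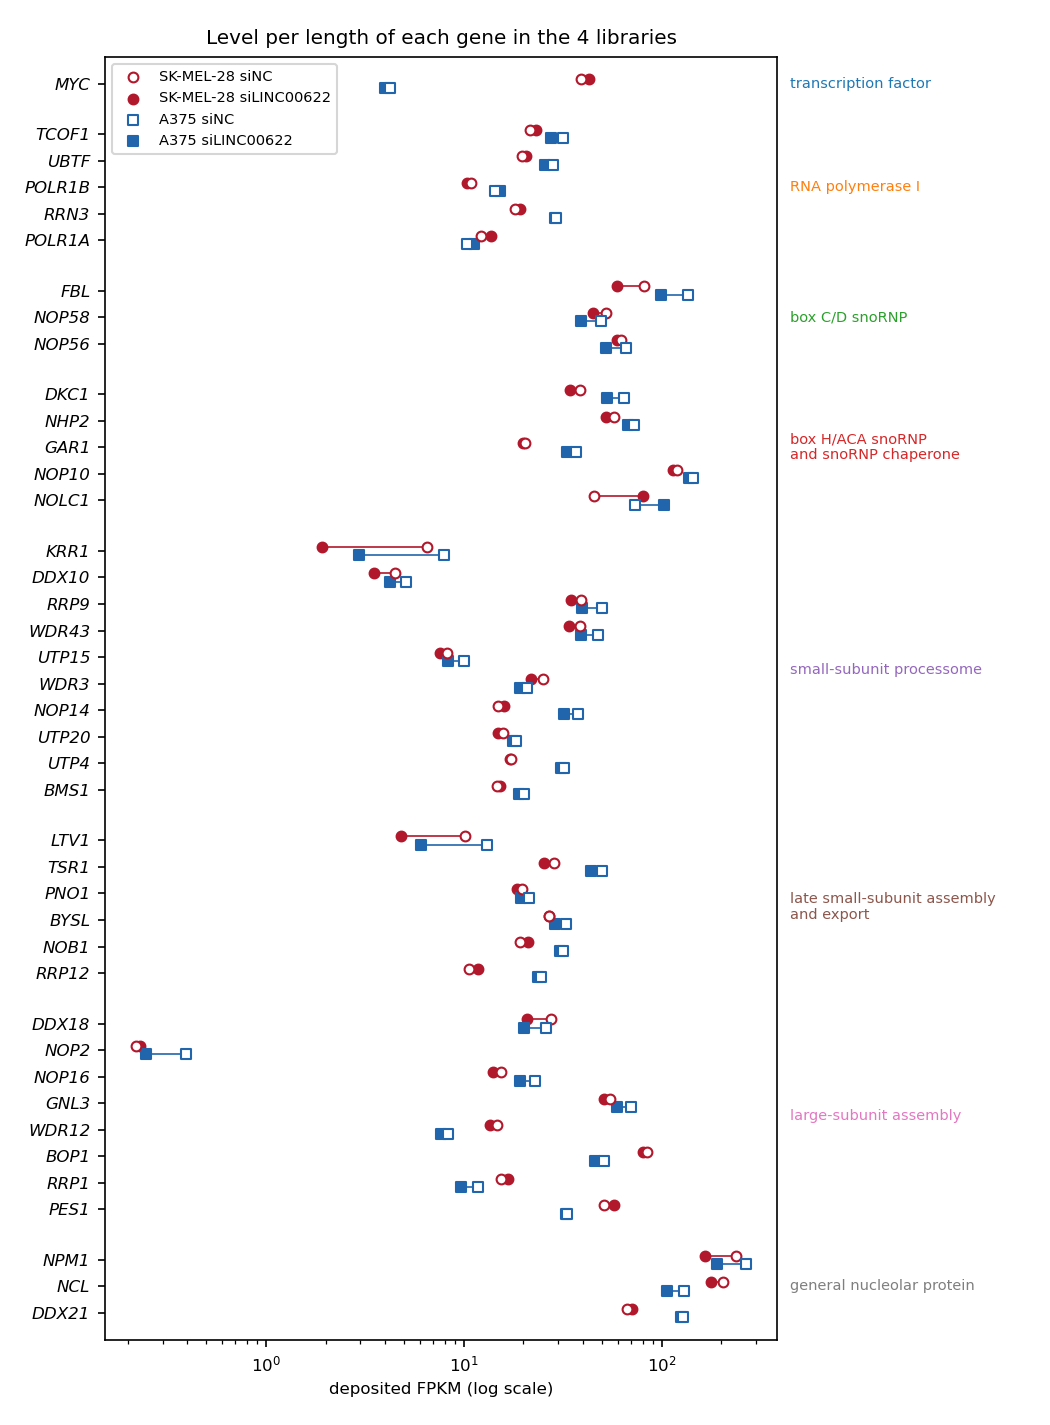
Deposited FPKM (x axis, log scale) of each member in the 4 libraries, open symbols siNC and filled symbols siLINC00622, circles SK-MEL-28 and squares A375, 1 library per symbol. KRR1 moves from 6.48 to 1.91 and from 7.95 to 2.95, while MYC is at 39.3 and 43.0 in SK-MEL-28 and at 4.23 and 4.0 in A375.

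The comparison of the lines did not choose the members and could be tested. SK-MEL-28 and A375 were compared over all 4 libraries by edgeR's quasi-likelihood test with treatment as a term and Benjamini-Hochberg adjustment over 16310 genes. The fit leaves 1 residual degree of freedom, so the spread it measures is how differently the lines responded to the siRNA, and a line stands here for single cultures. Of the 41 members, 10 were higher in SK-MEL-28 (34% of all genes) and 14 were higher in A375 (34.8% of all genes), while 17 did not pass. With library totals in place of TMM the counts were 8 and 25, as the median of all genes moved from -0.03 to -0.20 (28.3% and 41.4% of all genes). In 9 alternative fits, 6 of the 10 and 6 of the 14 kept their call each time. In 4 of these fits 1 library was left out, so that 1 line had a single library, whose spread is assumed to be that of the other line. Those 4 fits have no treatment term, so the siRNA difference enters their line term.

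The 6 that stayed higher in SK-MEL-28 were MYC, BOP1, PES1, WDR12, RRP1 and NCL. MYC stood apart, at 39.3 and 43.0 FPKM in the SK-MEL-28 libraries and 4.23 and 4.0 in A375, a log2 difference of 3.49 (adjusted p = 1.04e-06), or 11.3-fold. The PeBoW subunits were all higher, with BOP1 by 0.94 (adjusted p = 7.96e-05), WDR12 by 0.998 (adjusted p = 8.36e-05) and PES1 by 0.89 (adjusted p = 0.000151) on the log2 scale. BOP1 had 10731 and 10580 counts in SK-MEL-28, against 6128 and 6409 in A375, so the lines did not overlap. NCL was higher by 0.86 (adjusted p = 7.21e-05) and RRP1 by 0.76 (adjusted p = 0.00139). POLR1A, WDR3, NOP58 and DDX18 were also higher, by 0.43, 0.39, 0.31 and 0.24, but lost the call in 2 or more of the alternative fits.

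The 6 that stayed higher in A375 were NOP14, RRP12, DDX21, UTP4, GAR1 and TSR1. NOP14 had 1758 and 1934 counts in SK-MEL-28, against 4189 and 4142 in A375, a log2 difference of -0.999 for SK-MEL-28 minus A375 (adjusted p = 0.000225). Of its 3538 exonic bases, 605 are also exonic in NOP14-AS1 on the other strand. RRP12 differed by -0.93 (adjusted p = 0.000143), DDX21 by -0.71 (adjusted p = 0.000259), UTP4 by -0.70 (adjusted p = 0.000384), GAR1 by -0.63 (adjusted p = 0.00114) and TSR1 by -0.63 (adjusted p = 0.000565). FBL, DKC1, RRN3, NOB1, NOLC1, NOP16, POLR1B and UBTF were higher in A375 by this fit with log2 differences between -0.57 and -0.24, and each lost the call in at least 1 alternative. By role, 5 of the 8 large-subunit members were higher in SK-MEL-28 and 1 in A375, beside 34% and 34.8% of all genes, though DDX18 and NOP16 lost the call in most alternative fits. Of the 6 late small-subunit members, 0 were higher in SK-MEL-28 and 3 in A375, of which NOB1 lost the call without either A375 library and without the SK-MEL-28 siNC library. KRR1 did not pass, at -0.28 (adjusted p = 0.0712), nor did LTV1 at -0.18 (adjusted p = 0.216). Over the alternative fits the difference ran from -1.32 to 0.66 for KRR1 and from -0.80 to 0.45 for LTV1. Both genes passed with library totals. These ranges include the fits with 1 library left out and no treatment term, in which the siRNA difference enters the line term. They are therefore not a range of the line difference alone. In the comparison with TMM, 7 of the 10 processome members did not pass, beside 5081 of all 16310 genes tested.

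**Figure D5:**
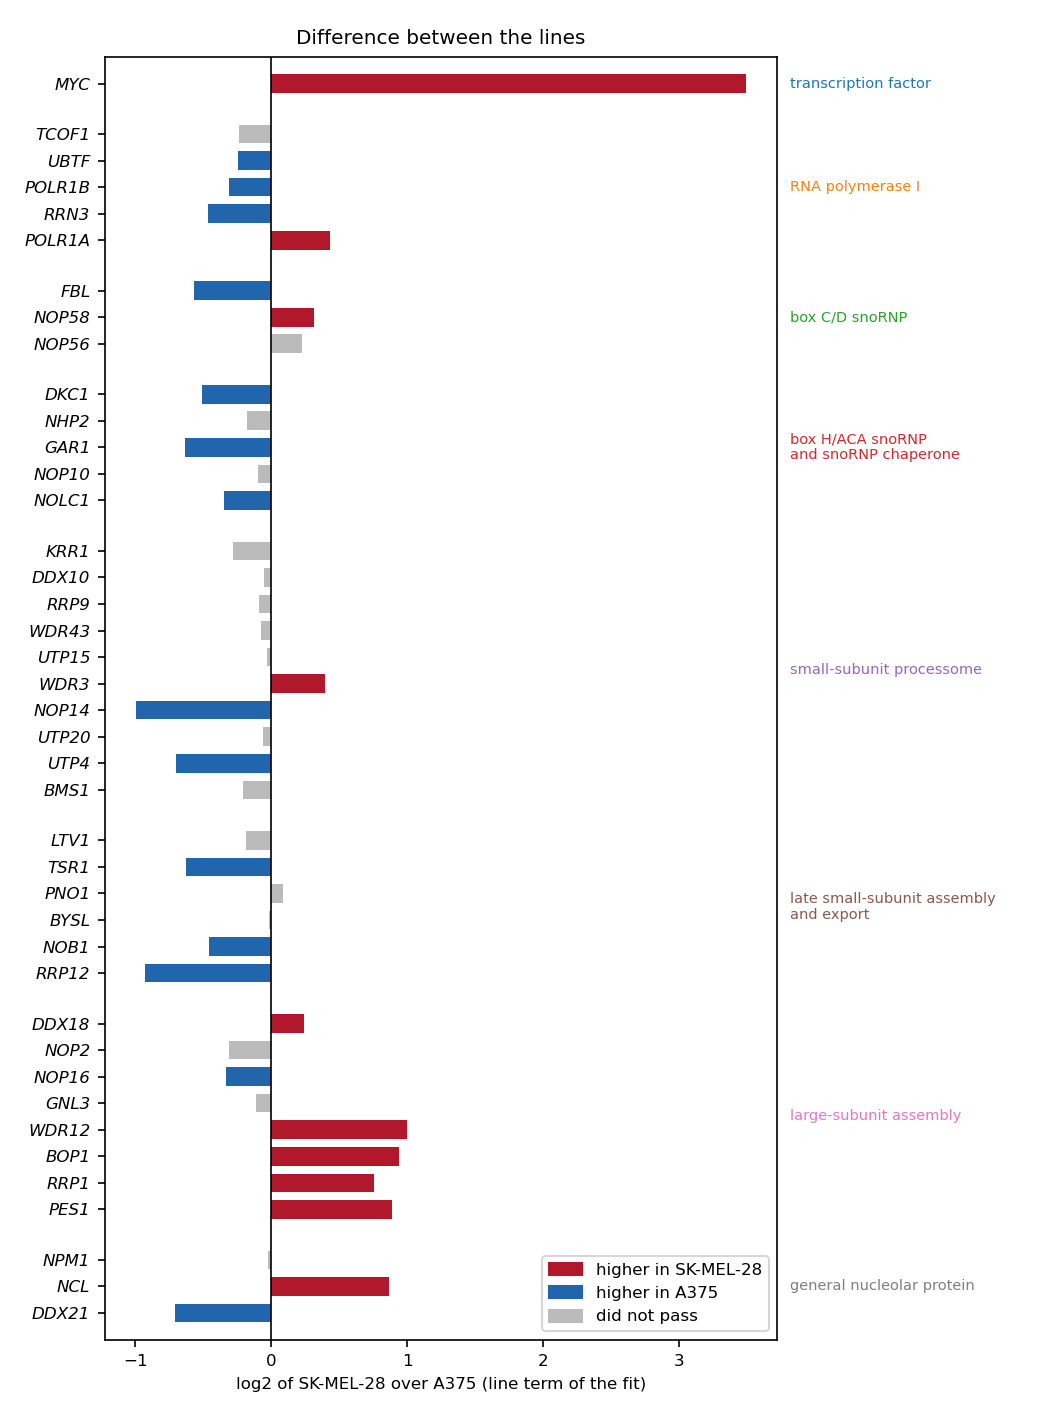
Log2 of SK-MEL-28 over A375 from the line term (x axis) for each member, grouped by role, over 2 libraries per line. Red bars are higher in SK-MEL-28 and blue bars higher in A375 at an adjusted p below 0.05, and grey bars did not pass; MYC reaches 3.49 and NOP14 -0.999.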

How the data were processed

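RNA-Seq libraries of A375 and SK-MEL-28 cells given siNC or siLINC00622 were grouped by the line and treatment in their labels, 4 libraries in all with 1 per condition. By the study's methods, poly(A) RNA was sequenced. The submitters' processing notes name hg19, HISAT2, HISAT, TopHat2 and Bowtie2 without roles. Counts were deposited as whole reads per gene with no normalization. The authors also gave FPKM values, which divide by length and library size. The TPM values that the authors deposited were used only in an alternative. The CPM values that the authors deposited gave each library's total, between 31269923 and 36384819 counts.

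The members and all gene lists were chosen with earlier results of these data known. Counts were scaled by TMM with edgeR 4.0.16 in R 4.3.3 within each line, with a prior count of 2, for genes that reached 10 counts in 1 library of that line. A call within a line is a fold change above 1.5 and has no p-value. Exact 95% Clopper-Pearson intervals cover counting error only, since reads carry no molecular identifiers. The line term was tested by edgeR's quasi-likelihood test with treatment as a term, for genes with at least 10 counts in 2 libraries, at an adjusted p of 0.05. DESeq2 1.42.0 was an alternative. Seed matches used the longest 3′ UTR of each gene in GENCODE 29 (GRCh38) and siRNA targets from the study's supplement. The table holds gene identifiers and no coordinates, so positions come from that annotation. All 41 members were named by role, with the overlapping and nearest listed genes of KRR1, pseudogenes of members, LINC00622 and genes of other lists, markers included, past the limit. The fits were tested on simulated data. Python 3.11.15 was used for the tables. Spans of 18 members overlap another listed gene.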

Additional observations from a re-analysis of the deposited data

Results flagged for a closer look

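In 5 members the log2 ratio of siLINC00622 over siNC was above 0 in SK-MEL-28 and below 0 in A375, with counting intervals apart from 0 in both lines and the same signs under every scaling tried. With 1 library per condition these differences between the lines were not tested. The share of all genes that meet the same conditions was not computed, so the count only describes these members. For the sign alone, 26 of 41 members had the same one in both lines, against 62.2% of all genes. The difference, SK-MEL-28 minus A375, was 0.41 for RRP1, 0.33 for NOP14, 0.32 for TCOF1, 0.20 for UBTF and 0.12 for DDX21. None of the 5 passed a fold change of 1.5 in either line. The intervals are those of TMM within each line, and that of DDX21 in A375, from -0.061 to -0.006, nearly reached 0.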

How the results depend on the processing

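Of the values on KRR1 and the module, 97 of 104 stayed within counting error, or within 1.5 times for counts, across scalings, units, prior counts and filters, and all kept their direction. On deposited FPKM with a pseudocount of 1, KRR1 had a log2 ratio of -1.36 (SK-MEL-28) and -1.18 (A375). It was -1.31 and -1.11 with GLIPR1 summed, an alternative chosen after seeing the data. Its gap to the median of the other members was -1.29 and -1.02 with FPKM, and -1.56 in SK-MEL-28 with TPM, where a pseudocount shrinks ratios of low values. The module median stayed between -0.08 and -0.05 in SK-MEL-28 and between -0.19 and -0.14 in A375, also without NOP2, without members with a seed match and without KRR1, LTV1 and NOLC1, which were added after seeing the data. NOP2 lost its A375 call with FPKM or TPM. For the lines, 25 members were higher in A375 with library totals in place of 14. Leaving out 1 library, in fits with the line as the only term, gave between 6 and 8 members higher in SK-MEL-28 and between 6 and 10 higher in A375. Without the A375 siNC library the counts were 6 and 6, and without the A375 siLINC00622 library 7 and 8. The line difference of NOLC1 went from -0.79 to 0.0447 over these fits, turning to 0.0447 without the SK-MEL-28 siNC library. With no treatment term, the siRNA difference enters the line term of these fits. Without that library SK-MEL-28 stood only as its siLINC00622 library, where NOLC1 had a log2 ratio of 0.82 over siNC. The labels carry no replicate numbers. The fit with line and treatment pairs the libraries by line, but its treatment term was not tested, since that contrast chose the members. No library could be left out of a ratio within a line.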
